A study of Macaca mulatta with 24 samples.

Results

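Of 8 genes that mark the nervous system of the gut wall (S100B, SOX10, GFAP, UCHL1, ELAVL4, VIP, RET and TAC1), 7 had a probe under their own symbol in the deposited ileum table, which names 16094 genes in all. These 7 genes were read by 12 of the 43603 probes on the array, and every such probe was taken. UCHL1 had no probe under its symbol. One probe is deposited under the placeholder symbol LOC701579, whose number is the RefSeq gene identifier of UCHL1, and its values are given beside the others but are not counted with them.

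The enteric nervous system lies in the bowel wall as a pair of networks, the myenteric plexus between the muscle layers and the submucosal plexus beneath the mucosa. Its neurons release acetylcholine, peptides and nitric oxide to drive or relax the muscle and to control secretion and blood flow, and its glia surround the neurons and send processes towards the epithelium. Neurons are mostly non-dividing cells, whereas the crypt epithelium and the lymphocytes of the gut divide quickly and are known for their sensitivity to radiation.

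Ileum of 24 rhesus macaques was analysed, with 1 array for each animal and no pooling of RNA. The animals were young adult males that received total-body irradiation (TBI) with cobalt-60 gamma rays, or none. The unirradiated controls (4 animals, all labelled day 4) served for every day. Each of the doses, 6.7 Gy and 7.4 Gy, had 4 animals on day 4, another 4 on day 7 and a further 2 on day 12. All 6 irradiated groups were compared with the same 4 controls. About 3 cm of whole ileum was taken, so each array measured mucosa, muscle and nerve together. In such bulk tissue, fewer cells of a type and less RNA per cell cannot be told apart.

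All values below are signals on the log2 scale, with 0 set at the 75th percentile of each array, so a difference of 1 is a doubling. They are compared between animals for 1 probe at a time, because different probes do not share a scale. That percentile lay between 837.3 and 1330 intensity units, and between 72.7% and 88.1% of the probes of an array were well above background. The ileal markers FABP6, a bile acid binding protein, and SLC10A2, the bile acid transporter of the ileum, were well above background on all 24 arrays. So were UCHL1, ELAVL4, VIP, TAC1, S100B and SOX10. The remaining members, GFAP and RET, were not, and were not tested. Thus 10 of the 12 member probes were among the 36108 probes tested.

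Control replicate 1 stood apart from the other 3 controls in these genes, and this bears on every comparison with the controls. Its signal was below the mean of the other controls for 6 of 6 tested neural genes (UCHL1 included), with a median difference of -1.43, and it was the lowest control for 5 of them. Over all tested probes the median difference was -0.04, and this array was the lowest control for 34.8%. The 6 smooth muscle genes measured were also all lower there, with a median difference of -2.08, whereas the median was 0.08 for 7 enteroendocrine genes and 0.39 for 8 epithelial genes. The 53 other neural genes tested had a median of -0.52, with 42 lower, and the 6 B cell genes -0.57, with 5 lower. ACTG2, the enteric smooth muscle actin, had a signal of 5.04 on this array and a highest control signal of 8.23. The main values are therefore also given without this animal.

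After 7.4 Gy on day 4, 1 of 10 member probes passed the test, a probe for ELAVL4, against 2.33% of all tested probes in that comparison. None passed in the other 5 comparisons with the controls. A probe was called when the adjusted p was under 0.05, by limma's moderated test with Benjamini-Hochberg adjustment over all tested probes, and the fold change was at least 2. The 10 member probes had a median log2 change of 1.04 after 7.4 Gy and 0.84 after 6.7 Gy on day 4, where the medians over all probes were -0.07 and -0.10. When control replicate 1 was left out, no member probe was called on day 4, where 1.11% and 0.615% of all probes were, and the medians of the member probes were 0.76 and 0.63.

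**Figure D1:**
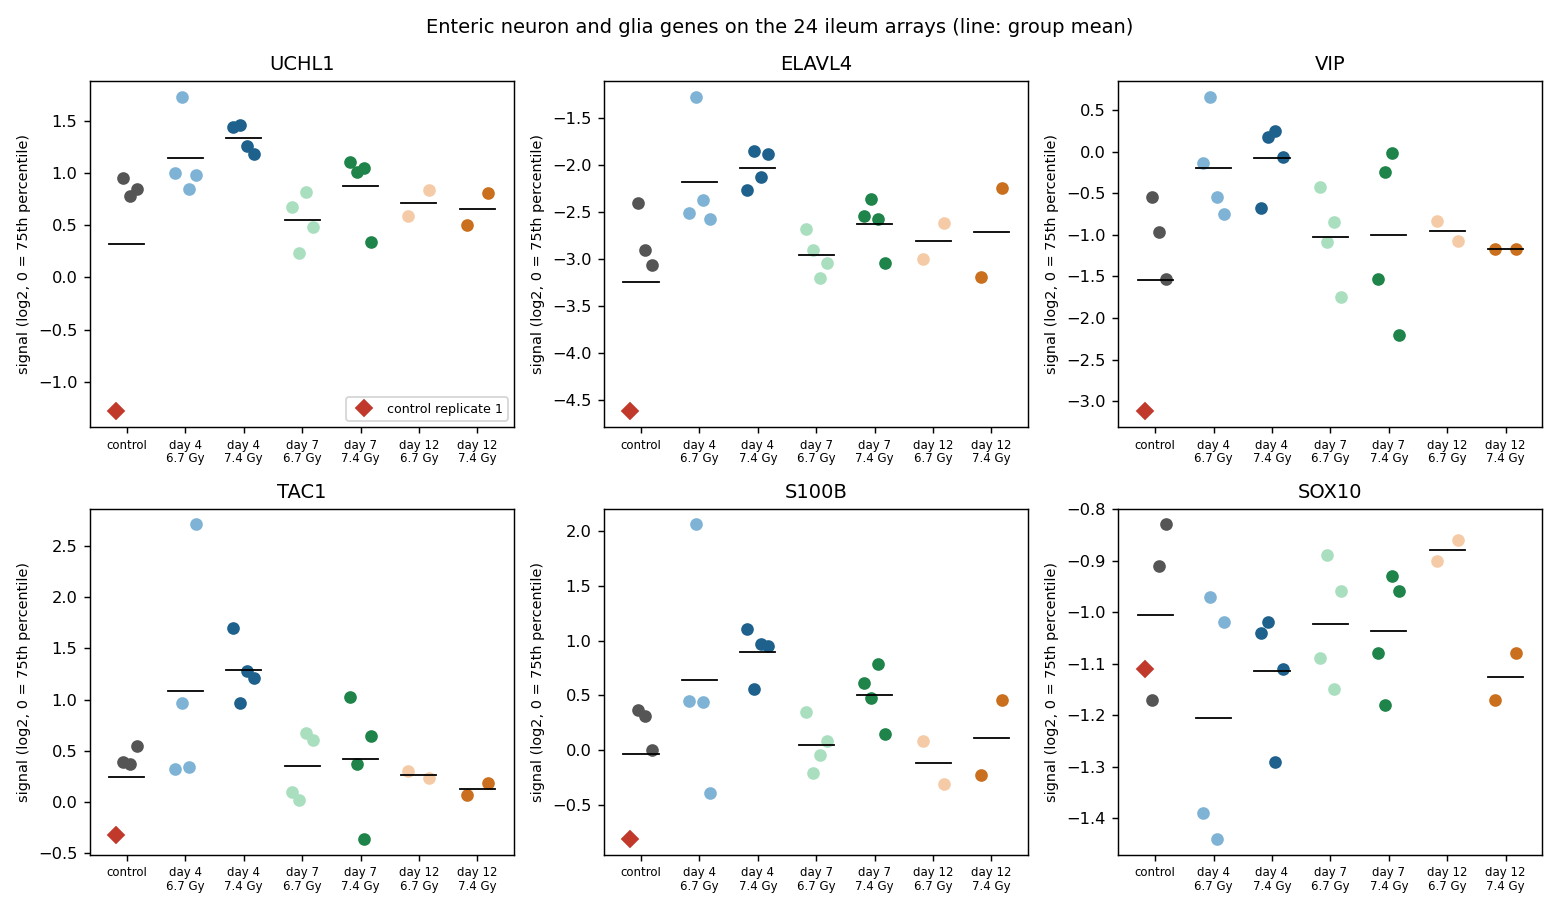
Signal (log2, y axis, with 0 at the 75th percentile of the array) of 6 neural genes at their brightest probe in the 7 groups (x axis), with 1 point for each animal, a line for the group mean and control replicate 1 as a red diamond. For UCHL1, ELAVL4, VIP and S100B control replicate 1 is the lowest of the 24 animals, and for UCHL1 and ELAVL4 the 4 animals of day 4 after 7.4 Gy lie above every control.

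Among the glial genes, S100B encodes a calcium-binding protein that fills the cytoplasm of enteric glia. Its signals in control replicates 1 to 4 were -0.81, 0.37, 0.31 and 0.00. On day 4 they were 0.45, 2.06, 0.44 and -0.39 after 6.7 Gy and 1.11, 0.56, 0.97 and 0.95 after 7.4 Gy. All 4 animals of the higher dose were thus above all 4 controls, while those of the lower dose ranged from below most controls to the highest signal of the whole set. The change on day 4 was 1.59-fold after 6.7 Gy (log2 0.67 ± 0.36, SE; limma adjusted p = 0.26) and 0.93 ± 0.36 on the log2 scale after 7.4 Gy (limma adjusted p = 0.12). Neither passed the test, and the changes were 0.41 and 0.67 once control replicate 1 was left out. On day 7 the signals were 0.35, -0.21, -0.04 and 0.08 after 6.7 Gy and 0.61, 0.48, 0.79 and 0.15 after 7.4 Gy. On day 12 they were 0.08 and -0.31 after the lower dose and -0.23 and 0.46 after the higher. These groups overlapped the controls.

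SOX10, a transcription factor that maintains glia and their progenitors, gave a probe that hardly moved. Its signal had an SD of 0.16 over the 24 arrays, between -1.44 and -0.83, and the controls spanned -1.17 to -0.83. The changes from control lay between -0.20 (day 4, 6.7 Gy, limma adjusted p = 0.32) and 0.13 (day 12, 6.7 Gy). The spread of the S100B probe was 0.59, and the correlation of the SOX10 probe with S100B over the 24 arrays was r = -0.15.

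GFAP, the intermediate filament of reactive glia, was well above background on 2 of 24 arrays, both of day 7 after 7.4 Gy. Its signals there were between -7.57 and -6.25 within the group, and between -8.89 and -6.80 in the controls. The dimmest signal that counted as well above background on an array lay between -7.22 and -5.19, so GFAP has no usable level in most animals and no fold is given.

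Among the neuronal genes, ELAVL4 encodes HuD, an RNA-binding protein of neurons. Its brighter probe read -4.62, -2.40, -2.90 and -3.06 in control replicates 1 to 4. On day 4 the signals were -2.51, -1.27, -2.37 and -2.57 after 6.7 Gy and -2.26, -1.85, -2.12 and -1.88 after 7.4 Gy. Every animal of the higher dose was above every control, but only narrowly above control replicate 2, and after the lower dose the groups overlapped. After 7.4 Gy on day 4 ELAVL4 rose 1.22 ± 0.36 on the log2 scale (SE, 2.33-fold, n = 4 and 4, limma adjusted p = 0.046). After 6.7 Gy the log2 change was 1.07 ± 0.36 (limma adjusted p = 0.10). The second ELAVL4 probe gave 1.12 ± 0.37 after 7.4 Gy (limma adjusted p = 0.075), and its animals did not overlap the controls either.

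The call for ELAVL4 rested on a small margin. Without control replicate 1 the log2 change was 0.76 ± 0.28 (limma adjusted p = 0.15), and leaving out control replicate 3 or 4, or any 1 of the 4 irradiated animals, also took the adjusted p above 0.05, between 0.056 and 0.092. With the slide as a block it was 1.03 (limma adjusted p = 0.12). On the slides that held a control and an animal of this group, the irradiated animal was higher by 0.64 on slide 3 and by 1.21 on slide 4.

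On day 7 the ELAVL4 signals were -2.68, -2.90, -3.20 and -3.04 after 6.7 Gy and -2.54, -2.36, -2.57 and -3.04 after 7.4 Gy. On day 12 they were -3.0 and -2.61 after the lower dose and -3.19 and -2.24 after the higher. All of these lay above control replicate 1 and within or near the range of the other 3 controls. The log2 changes from control ranged from 0.29 to 0.62 in these 4 groups, and without control replicate 1 that of day 7 after 6.7 Gy was -0.17 and that of day 12 after 6.7 Gy was -0.02. The second probe differed on day 12 after 7.4 Gy, with -0.14, and -0.72 (limma adjusted p = 0.43) without control replicate 1.

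UCHL1 encodes PGP9.5, a ubiquitin hydrolase long used to stain nerve. Its probe read -1.28, 0.95, 0.78 and 0.85 in control replicates 1 to 4. On day 4 it read 1.0, 1.73, 0.85 and 0.98 after 6.7 Gy and 1.44, 1.46, 1.26 and 1.18 after 7.4 Gy. Apart from replicate 1 the controls lay between 0.78 and 0.95, and all animals of the higher dose were above them. The log2 changes were 0.81 ± 0.35 (limma adjusted p = 0.17) and 1.01 ± 0.35 (limma adjusted p = 0.085), and without control replicate 1 they were 0.28 and 0.47. On day 7 the signals were 0.67, 0.23, 0.82 and 0.48 after 6.7 Gy and 1.11, 1.01, 1.05 and 0.34 after 7.4 Gy. On day 12 they were 0.59 and 0.84 after the lower dose and 0.50 and 0.81 after the higher. With all 4 controls the day 7 and day 12 changes ranged from 0.22 to 0.55, and without control replicate 1 that of day 7 after 6.7 Gy was -0.31.

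VIP encodes vasoactive intestinal peptide, which relaxes gut muscle and drives secretion, and is made by inhibitory motor and secretomotor neurons. Its brighter probe read -3.12, -0.54, -0.97 and -1.53 in control replicates 1 to 4. On day 4 the signals were -0.14, 0.66, -0.54 and -0.75 after 6.7 Gy and -0.68, 0.18, 0.25 and -0.07 after 7.4 Gy. At both doses the irradiated animals overlapped the controls through control replicate 2. VIP had the largest fitted changes of the members, with log2 1.35 ± 0.50 after 6.7 Gy (limma adjusted p = 0.13) and 1.47 ± 0.50 after 7.4 Gy (limma adjusted p = 0.08), with a control spread of SD 1.13 (n = 4). The changes were 0.82 and 0.94 without control replicate 1. Without control replicate 2 the change after 7.4 Gy was 1.8, and passed the test at an adjusted p = 0.049 by limma. The second VIP probe gave 1.28 and 1.18 with all controls.

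The VIP signals of day 7 were -0.43, -1.09, -0.85 and -1.75 after 6.7 Gy. After 7.4 Gy they were -1.53, -0.24, -0.02 and -2.21, so this group held both high and low animals. On day 12 they were -0.83 and -1.08 after 6.7 Gy and -1.17 in both animals after 7.4 Gy. The changes of this probe from control were between 0.37 and 0.59, those of the second probe between 0.30 and 0.88 (day 12, 6.7 Gy), and none passed the test.

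TAC1 encodes the precursor of substance P and neurokinin A, the excitatory tachykinins of motor and sensory neurons, and is also made by enterochromaffin cells of the epithelium. Its brightest probe read -0.32, 0.39, 0.37 and 0.55 in control replicates 1 to 4. On day 4 the signals were 0.32, 0.97, 0.34 and 2.71 after 6.7 Gy and 1.70, 0.97, 1.28 and 1.21 after 7.4 Gy. All 4 animals of the higher dose were above all controls, and after the lower dose replicate 4 was far above the rest of its group. The log2 changes were 0.84 ± 0.39 (limma adjusted p = 0.21) and 1.04 ± 0.39 (limma adjusted p = 0.11), and 0.65 and 0.85 without control replicate 1. Without replicate 4 of the lower dose that group's change was 0.29.

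The other 3 TAC1 probes followed the brightest one, the lowest correlation over the 24 arrays being r = 0.955, and gave log2 changes of 0.89 to 1.03 after 7.4 Gy on day 4. On day 7 the TAC1 signals were 0.10, 0.02, 0.67 and 0.61 after 6.7 Gy and 1.03, 0.37, -0.36 and 0.64 after 7.4 Gy. On day 12 they were 0.30 and 0.23, and 0.07 and 0.19. Most of these animals lay within the range of the controls, and the changes of the brightest probe were between -0.12 and 0.17. The other 3 probes gave 0.33 to 0.46 on day 7 after 7.4 Gy.

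RET, the receptor through which glial cell line-derived neurotrophic factor guides and maintains enteric neurons, was well above background on 10 of 24 arrays, spread over all 7 groups. Its signals ranged from -6.90 to -3.04 in the controls, from -7.30 to -5.49 on day 4 after 6.7 Gy and from -6.95 to -5.57 after 7.4 Gy. The single bright array was control replicate 2. No change is given for RET.

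**Figure D2:**
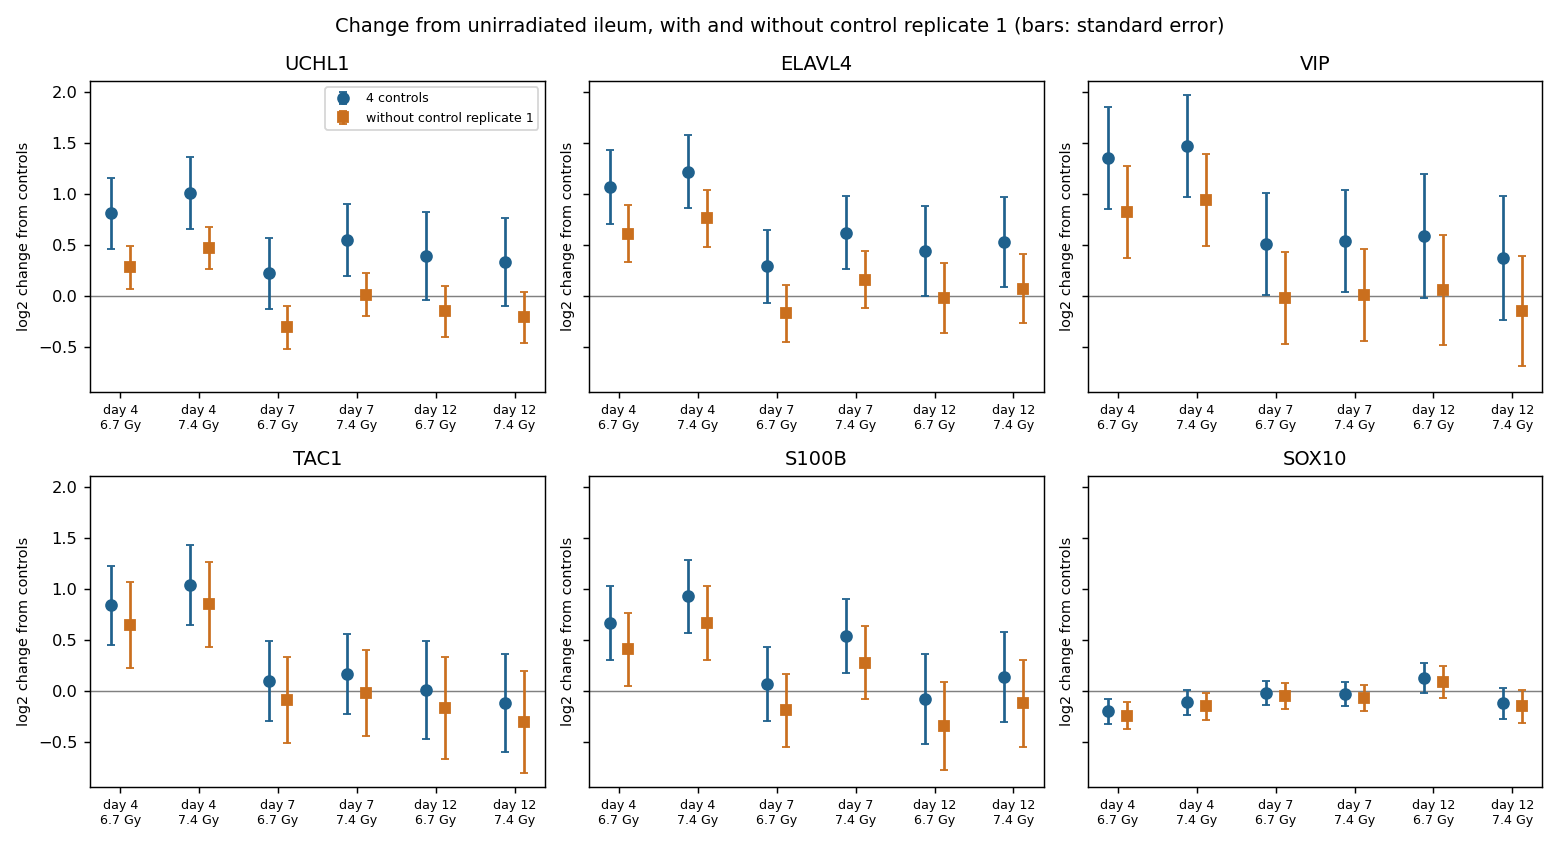
Log2 change from the controls (y axis) of 6 neural genes in the 6 irradiated groups (x axis), fitted with all 4 controls (circles) and without control replicate 1 (squares), with bars of 1 standard error. For UCHL1, ELAVL4 and VIP the squares are lower throughout. They lie above 0 on day 4 and between -0.31 and 0.16 on days 7 and 12.

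On day 4 after 7.4 Gy, 9 of the 10 member probes had an unadjusted limma p under 0.05, against 23.6% of all tested probes, and for 7 of 10 every irradiated animal was above every control, against 7.84% of all tested probes. These 7 probes belong to 3 genes, with 4 of them for TAC1, 2 for ELAVL4 and 1 for S100B, so they are not separate observations. With control replicate 1 left out, 2 of 10 had an unadjusted p under 0.05, both for ELAVL4, where 19% of all probes did. After 6.7 Gy, 6 of 10 had an unadjusted p under 0.05, against 22.9% of all probes, and 1 of 10 against 19.4% with control replicate 1 left out. With all controls limma called 0 where it called 0.978% of all probes, and for 0 of 10 were the animals all above the controls, against 4.1%. The methods' t-test also called 0, and its share over all probes is not given here.

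On days 7 and 12 limma called 0 of the 10 member probes in each of the 4 groups, and 0 had an unadjusted p under 0.05. Over all probes the share at that threshold was 9.36% and 13.4% on day 7 after 6.7 and 7.4 Gy, and 8.98% and 8.13% on day 12. The methods' t-test also called none, and its share over all probes is not given here. The shares of all tested probes called by limma were 0.235% and 0.568% on day 7 after 6.7 and 7.4 Gy, and 0.108% and 0.0443% on day 12. The median changes of the member probes were 0.11, 0.47, 0.16 and 0.01 in that order, and -0.09, 0.15, 0.02 and -0.16 once control replicate 1 was left out.

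The comparison of day 7 with day 4 at the same dose does not use the controls. After 6.7 Gy 9 of 10 member probes had a lower mean on day 7, with a median of -0.73, and after 7.4 Gy also 9 of 10, with a median of -0.59. Several of these probes share a gene, so they are not separate observations. Over all probes the medians were 0.07 and 0.01, and 58.8% and 50.7% were higher on day 7. Limma called 0 of 10 at either dose, where it called 0.354% and 0.942% of all probes, and 1 of 10 had an unadjusted p under 0.05 at each dose, against 19.1% and 18.8% of all probes. ELAVL4 gave -0.77 ± 0.36 after 6.7 Gy (limma adjusted p = 0.25) and -0.60 ± 0.36 after 7.4 Gy (limma adjusted p = 0.38). By its brighter probe all day 7 animals were below all day 4 animals at both doses. Over the member probes this held for 2 of 10 after 6.7 Gy and 1 of 10 after 7.4 Gy, all for ELAVL4, against 3.94% and 6.4% of all probes. The UCHL1 probe also showed it at both doses, with changes of -0.59 and -0.46.

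Between the doses no member probe was called on day 4 or day 7, and neither was any other probe, the share called being 0% in both comparisons. No member probe had an unadjusted p under 0.05 by limma, against 5.54% of all probes on day 4 and 4.02% on day 7. On day 4 the difference of 7.4 Gy from 6.7 Gy was 0.16 ± 0.36 for ELAVL4, 0.12 ± 0.50 for VIP and 0.26 ± 0.36 for S100B, each smaller than its standard error.

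Further genes of the enteric nervous system were read from 4 lists of 69 genes, of which 58 were on the array and 53 were tested, each at its brightest probe. On day 4 after 7.4 Gy, 7 of 53 were called, all 7 higher and all pan-neuronal, against 2.33% of all tested probes. The count was 0 with array position as a covariate or by the methods' t-test, 1 with slide as a block and 3 with normexp background correction. The 2.33% is from the main fit, and the shares of all probes called in these other fits are not given here. In the other 5 comparisons with the controls limma called 0 of 53. HAND2, a transcription factor needed for enteric neurons to differentiate, rose by 1.75 on the log2 scale. SNAP25, a protein of synaptic vesicle fusion, rose by 1.62, the neurofilament chains NEFM and NEFL by 1.55 and 1.41, and the dendritic microtubule protein MAP2 by 1.31. RTN1, a reticulon of neurons and endocrine cells, rose by 1.16. The adjusted p of these named genes by limma lay between 0.0056 (NEFM) and 0.037 (SNAP25). At an unadjusted p under 0.05, 22 of the 53 were higher and 4 lower on day 4 after 7.4 Gy (23.6% of all probes passed in either direction), and 10 and 4 after 6.7 Gy (22.9%). At that threshold the other counts, higher and lower, were 2 and 0 on day 7 after 6.7 Gy, 10 and 3 on day 7 after 7.4 Gy, 2 and 1 on day 12 after 6.7 Gy, and 1 and 1 on day 12 after 7.4 Gy. Over all probes the shares that passed in either direction were 9.36%, 13.4%, 8.98% and 8.13% in that order.

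The pan-neuronal list was not uniform. On day 4 after 7.4 Gy, 13 of its 20 tested genes were higher and 7 lower, with a median of 0.60 (0.41 without control replicate 1). RBFOX3, the neuronal splicing factor NeuN, was lower by a log2 change of -0.90 (limma adjusted p = 0.0099, and 0.029 without that control). This was under 2-fold, and the gene was chosen after its values were seen. The glial list (11 tested) had a median of 0.41 (0.32 without that control) with 0 called, 5 genes higher and 1 lower at an unadjusted p under 0.05. The receptor and ligand list (13 tested) had a median of 0.50 (0.26 without that control), also with 0 called, 5 higher and 1 lower. The transmitter list (9 tested) had a median of -0.10 (-0.15), with 0 called, 2 higher and 0 lower.

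Of the 53 genes, 1 was called on day 4 after 7.4 Gy when control replicate 1 was left out, against 1.11% of all probes in that fit. This was NEFM, at 1.56 (limma adjusted p = 0.018), which control replicate 1 hardly moved. HAND2 was then at 0.96 (limma adjusted p = 0.024, under 2-fold), NEFL at 1.15, SNAP25 at 1.1, MAP2 at 0.85 and RTN1 at 0.76 (limma adjusted p = 0.074). After 6.7 Gy on day 4 NEFM was at -0.06 ± 0.30, and no probe on the array was called between the doses. With any 1 of the 4 irradiated animals left out instead, 2 or 3 of the 53 genes were called after 7.4 Gy. The shares of all probes called in those fits are not given here.

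**Figure D3:**
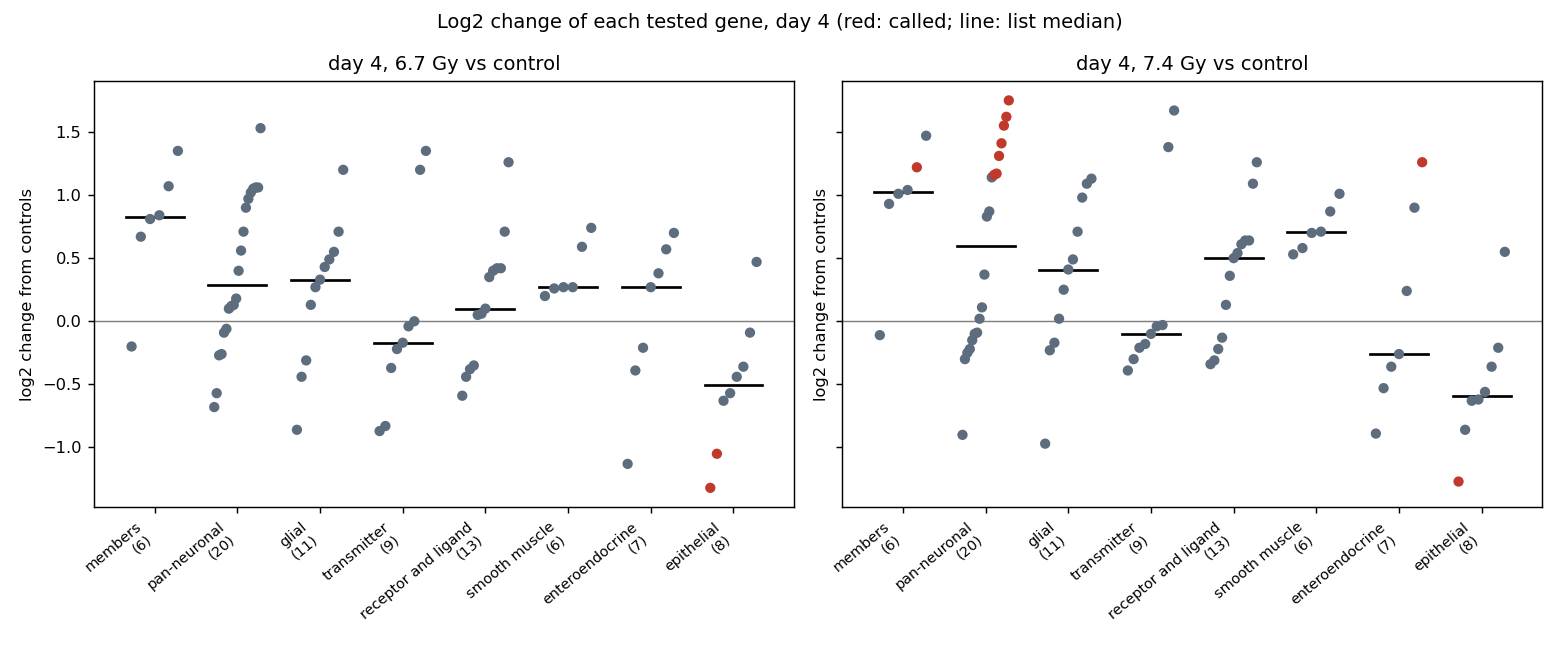
Log2 change from the controls (y axis) of each tested gene on day 4 after 6.7 Gy (left) and 7.4 Gy (right), grouped by list (x axis, with the number of genes), with called genes in red and a line at the list median; the 6 members shown include UCHL1. After 7.4 Gy 7 pan-neuronal genes and ELAVL4 are called among the neural lists, and the 6 smooth muscle genes lie above 0 with a median of 0.70.

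Markers of the other tissues of the bowel wall were read beside these. The 6 smooth muscle genes tested were all higher than in the controls on day 4, with medians of 0.27 after 6.7 Gy and 0.70 after 7.4 Gy and 0 called. Their level per animal, the median of the centred genes, was -1.87 in control replicate 1 and between 0.06 and 0.16 in the other controls. It was between -0.32 and 0.58 on day 4 after 6.7 Gy and between 0.13 and 0.69 after 7.4 Gy. Without control replicate 1 the smooth muscle medians were -0.08 and 0.20. In that fit those of the member probes were 0.63 and 0.76, and those of the 53 other neural genes 0.09 and 0.17. KIT, which marks the interstitial cells of Cajal, had control signals of -0.05 to 0.61 and day 4 signals of -0.34 to 0.56 after 6.7 Gy and -0.03 to 0.83 after 7.4 Gy.

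The 8 epithelial genes had medians of -0.50 and -0.59 on day 4, with 2 and 1 called lower (1 and 1 without control replicate 1). EPCAM, an adhesion molecule of epithelium, was at 5.39 to 6.05 in the controls and at 4.62 to 5.37 and 4.85 to 5.18 in the day 4 groups. The 6 B cell genes had medians of -1.54 and -1.34, with 2 and 1 called lower (1 and 1 without that control), and the B cell antigen MS4A1 was well above background in 4 of 4 controls, 1 of 4 animals after 6.7 Gy and 0 of 4 after 7.4 Gy. CHGA, of the enteroendocrine cells, was at 3.82 to 4.88 in the controls and at 4.35 to 5.64 and 4.78 to 5.59 on day 4. The 7 enteroendocrine genes had medians of 0.27 and -0.26 (0.29 and 0.05 without control replicate 1), with 4 higher and 3 lower after 6.7 Gy, 3 higher and 4 lower after 7.4 Gy, and 0 and 1 called; the called gene was CHGB, a secretory granule protein that neurons also make, at 1.26. The 6 adipocyte genes had medians of -0.20 and 0.09 and 0 called. The part of these shifts in the values of the neural genes was not tested.

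Across the 24 animals the neural genes varied together to unequal degrees. The points share the arrays, their scaling and control replicate 1, so correlations are given as descriptions. UCHL1 and ELAVL4 had r = 0.911 (0.837 without control replicate 1), ELAVL4 and VIP 0.846 (0.754), and the glial S100B and ELAVL4 0.827 (0.812). TAC1 followed them less closely, with r = 0.508 with UCHL1, 0.428 with ELAVL4 and 0.262 with VIP (0.471, 0.328 and 0.119 without control replicate 1). On deviations from the group means these were 0.242, 0.0452 and -0.218. SOX10 had r between -0.256 and -0.0251 with the other members, and between -0.0192 and 0.376 on deviations from the group means.

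The genes whose signals were most like each member over the 24 arrays are given here for each. For UCHL1 they included DUSP26 (r = 0.952) and HMP19 (0.931). For ELAVL4 they were RTN1 (0.966), LOC715436 (0.96) and LINGO1 (0.952), and for VIP they were CXXC4 (0.848), ELAVL4 (0.846) and DUSP26 (0.835). S100B was most like SOX5 (0.919), FLRT2 (0.912) and PDGFC (0.905). TAC1 was most like PRMT5 (0.898), LRP8 (0.876) and FTSJ3 (0.874), and SOX10 like TRIML1 (0.818), NKX2-1 (0.805) and TSPYL6 (0.758), none of them in the neural lists used here.

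Part of the shared variation ran with the muscle genes. The smooth muscle level had r = 0.814 with UCHL1, 0.749 with ELAVL4, 0.574 with VIP and 0.644 with S100B. Without control replicate 1 these were 0.459, 0.462, 0.186 and 0.601. TAC1 had r = 0.331 with the smooth muscle level and -0.511 with the enteroendocrine level (0.166 and -0.584 without that control, and 0.152 and -0.325 on deviations from the group means). The enteroendocrine level does not stand for every gene in it. It was at -0.47 to -0.01 on day 4 after 7.4 Gy and at -0.19 to -0.05 in the controls. CHGA was at 4.78 to 5.59 in that group and at 3.82 to 4.88 in the controls. The correlation of TAC1 with CHGA itself is not given here.

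**Figure D4:**
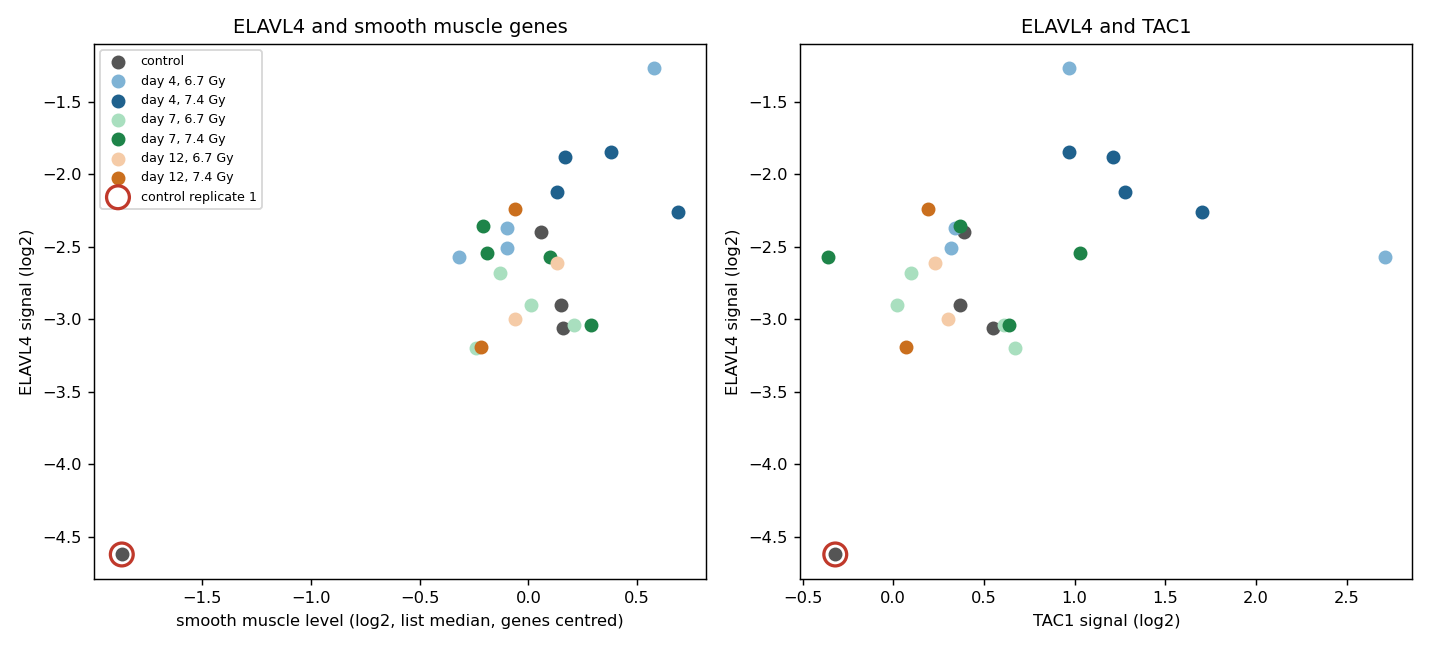
ELAVL4 signal (log2, y axis) against the smooth muscle level (left, log2, median of 6 centred genes) and against the TAC1 signal (right, log2), with 1 point for each of the 24 animals coloured by group and control replicate 1 ringed. Control replicate 1 lies alone at the lower left on the left panel, and on the right panel the animal with the highest TAC1 (2.71) has an ELAVL4 signal of -2.57, among the middle of the set.

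Among the irradiated animals, 2 of the day 4 group after 6.7 Gy stood out. Replicate 2 had the highest signal of all 24 animals for UCHL1, ELAVL4, VIP and S100B, and was the highest of its group in 33 of the 53 other neural genes and in 27.7% of all probes. Its smooth muscle level was 0.58 and its adipocyte level 0.77, each the highest of its group, and ADIPOQ, the adipocyte hormone adiponectin, was at 2.15 where the other 3 animals were at -3.26 to -1.1. Without this animal the changes after 6.7 Gy were 0.76 for ELAVL4, 1.07 for VIP, 0.62 for UCHL1 and 0.20 for S100B.

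Replicate 4 of the same group differed from it. It had the highest TAC1 signal of all 24 animals, on all 4 TAC1 probes, and the lowest signal of its group for S100B, ELAVL4 and VIP. For ELAVL4 the margin was small, at -2.57 against -2.51 in replicate 1. For UCHL1, at 0.98, it was not the lowest, with replicate 3 at 0.85. This animal was the lowest of its group in 23 of the 53 other neural genes, not far from its share of 36.6% over all probes. Its smooth muscle level of -0.32 was the lowest of the group. The ileal markers FABP6 and SLC10A2 were at 7.00 and 1.67 in this animal, the lowest of all 24, with the next lowest at 8.20 and 2.09. The part of this in its TAC1 signal was not tested.

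The arrays lay 4 to a slide on 6 slides, and every control lay in the same position of its slide. For the day 7 and day 12 groups position and group cannot be told apart in the comparisons with the controls. All 4 arrays of day 4 after 7.4 Gy lay in position 2, and only the group of day 4 after 6.7 Gy, with 2 arrays in each of these positions, links them to the controls. With position as a covariate the ELAVL4 change after 7.4 Gy was 1.8 (limma adjusted p = 0.17), and TAC1 was at 0.16. With slide as a block, the day 4 changes at the lower and the higher dose were 1.13 and 1.21 for VIP, 0.92 and 0.81 for UCHL1, 1.02 and 1.05 for TAC1 and 0.52 and 0.65 for S100B, with none called. The share of all probes called in that fit is not given here. Within slides, VIP on day 4 after 6.7 Gy was 2.59 above control replicate 1 on slide 1 and was -0.21 relative to control replicate 2 on slide 2. After 7.4 Gy it was 0.30 above control replicate 3 on slide 3 and 1.72 above control replicate 4 on slide 4.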

How the data were processed

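Total RNA was labelled with Cy3 and hybridised to Agilent one-colour rhesus arrays. The authors read the arrays with Feature Extraction 11.0.1.1, and each deposited scanner intensity is background-subtracted and unscaled. The deposited log2 values were scaled by the authors to each array's 75th percentile, and their median over the arrays is 0 for each probe. Here log2 intensities were scaled the same way, and once centred they differed from the deposited log2 values by less than 0.05 for 100% of values.

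A probe was tested if all arrays of some group had it well above background. Groups came from the sample titles, and day 12 was used where a protocol text names another day. R 4.3.3 (data.table, version 1.17.8) with limma 3.58.1 fitted 1 mean per group over all 24 arrays, a test checked on simulated data. Alternatives changed scaling, background, filter, test, block and animals.

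Genes were represented by their brightest tested probe. Named were the members, the 5 largest called genes of each companion list, the 3 genes most like each member and defining markers, and 1 gene that this rule names is not reported here. The members and lists were chosen with earlier results of these data known. The number of animals limits the precision. Probe sequences were not used here.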

Additional observations from a re-analysis of the deposited data

Results flagged for a closer look

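Of 40 groups of 4 animals examined, each for 1 gene, 5 held an animal whose gap to its nearest neighbour was large for the range of its group. By chance about 1 in 20 groups would be marked this way. UCHL1 in control replicate 1 was at -1.28, with the other 3 controls at 0.78 to 0.95. UCHL1 in day 7 replicate 4 after 7.4 Gy was at 0.34, with the others at 1.01 to 1.11. ELAVL4 in day 4 replicate 2 after 6.7 Gy was at -1.27, with the others at -2.57 to -2.37. RET was at -3.04 in control replicate 2, where the others were at -6.90 to -6.25, and at -7.79 in day 7 replicate 3 after 6.7 Gy, where the others were at -6.60 to -6.49; most RET signals were not well above background.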

How the results depend on the processing

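After 7.4 Gy on day 4 the ELAVL4 change kept its direction in every setting tried, with a limma or t-test adjusted p between 0.024 and 0.23; with normexp it was 0.78, under 2-fold. The count of member probes called there went from 1 to 0 with array position as a covariate, with no filter on dim probes, with normexp on spot medians (chosen after seeing the data, since the files hold no mean spot signal and the planned normexp on it was not run), with slide as a block and by the methods' t-test. Leaving out 1 animal at a time gave 0 to 3 calls, the 3 without control replicate 2. The count of other neural genes called there, 7, was 0 with position, 3 with normexp, 11 with quantile scaling, 1 with slide and 0 by the t-test, and 1 to 10 with 1 animal left out. After 6.7 Gy on day 4 the count was 3 with quantile scaling and 0 to 2 with 1 animal left out. Replicate numbers did not pair animals (correlations of same-numbered animals from -0.26 to 0.23). The fit with a replicate block gave 1 such call after 6.7 Gy and turned TAC1 on day 12 after 7.4 Gy to 0.01. Without control replicate 1, 1.11% of all probes were called after 7.4 Gy on day 4 and 0.615% after 6.7 Gy. For the other settings that share is not given here. Their counts therefore cannot be read as results about the neural genes in particular.

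The other reversals were of small changes on days 7 and 12, none of them called, and the cause was not tested. With normexp, S100B on day 7 after 6.7 Gy was 0, SOX10 on day 7 after 7.4 Gy 0.03 and TAC1 on day 12 after 6.7 Gy -0.03, and quantile scaling put the last at 0. With slide as a block SOX10 on day 7 after 7.4 Gy was 0.05, TAC1 on day 12 was -0.17 at the lower and 0.08 at the higher dose, and S100B and VIP on day 12 after 7.4 Gy were -0.29 and -0.11. With 1 animal left out, the changes on day 7 after 6.7 Gy ranged from -0.19 to 0.21 for S100B, -0.07 to 0.04 for SOX10, -0.31 to 0.43 for UCHL1, -0.17 to 0.58 for ELAVL4, -0.02 to 0.84 for VIP and -0.09 to 0.21 for TAC1. On day 7 after 7.4 Gy they ranged from -0.09 to 0.03 for SOX10 and -0.03 to 0.43 for TAC1. On day 12 after 6.7 Gy the ranges were -0.34 to 0.11 for S100B, -0.15 to 0.60 for UCHL1, -0.02 to 0.72 for ELAVL4 and -0.17 to 0.12 for TAC1. On day 12 after 7.4 Gy they were -0.20 to 0.49 for S100B, -0.21 to 0.54 for UCHL1 and -0.15 to 0.71 for VIP. Where 1 of the 2 animals of a day 12 group was left out, the other was assumed to vary like the other groups.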
